A study of Mus musculus with 6 samples.

Results

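Interferon response and antigen presentation genes were followed in PA6 cells, a murine stromal cell line, that were exposed to FGF2 or to BMP4 for 3 h. The 43 genes were taken as a named list of interferon receptors, signalling proteins and transcription factors, interferon-induced effectors, immunoproteasome subunits and proteins of peptide loading on major histocompatibility complex (MHC) class I molecules. They were found on the array by gene symbol. Of these, 40 had at least 1 probe of that symbol (65 probes in all, among the 30854 gene names of the array), 33 passed the detection filter and were tested among 11872 genes, 7 had a probe that did not pass it, and 3 (H2-K1, H2-D1 and ISG15) were not analysed here.

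Confluent PA6 monolayers were kept in serum-free medium that held no growth factor (-GFs), 20 ng/ml of recombinant FGF2 or 10 ng/ml of recombinant BMP4, the doses given by the sample labels. All groups share the cell line, the serum-free medium and the 3 h of incubation. Each biological replicate comprised 1 well of each kind, so that the replicate number links a -GFs, an FGF2 and a BMP4 array. There were 2 replicates per group and 6 arrays, and the labels do not tell how the replicate cultures were kept apart.

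Interferons are cytokines, of which those of type I are released upon sensing of foreign nucleic acids. Type I interferons act through a receptor made of IFNAR1 and IFNAR2 and interferon γ through IFNGR1 and IFNGR2, and both receptors signal through JAK kinases to STAT transcription factors. Complexes of STAT proteins with IRF9 bind the interferon-stimulated response element (ISRE), whereas STAT dimers bind the gamma-activated site (GAS). Cells keep a basal expression of many of these genes without added interferon, and SOCS proteins and USP18 restrain the signal. Among the genes induced are the immunoproteasome subunits PSMB8, PSMB9 and PSMB10, which replace constitutive subunits of the proteasome, and the transporter TAP1/TAP2, which carries the resulting peptides to class I molecules.

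The sequences upstream of the genes on which the results turn are given first, from the RefSeq promoter table of GRCm38.p6, where 39 of the 43 genes have an entry. Psmb9 and Tap1 are transcribed away from each other from start sites with 225 bases between them. This stretch, chr17:34187331-34187555 on the plus strand with the start of Psmb9 on its left and that of Tap1 on its right, is shown because both genes were lower with FGF2 (PSMB9 in the paired model described below):
between Psmb9 and Tap1: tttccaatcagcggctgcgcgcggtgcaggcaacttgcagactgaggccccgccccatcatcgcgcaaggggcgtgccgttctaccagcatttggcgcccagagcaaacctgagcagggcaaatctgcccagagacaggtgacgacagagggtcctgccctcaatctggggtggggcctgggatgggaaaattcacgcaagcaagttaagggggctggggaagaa

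The core of the ISRE (GAAA, any 2 bases, GAAA, or on the other strand TTTC, any 2 bases, TTTC) and that of the GAS (TTCNNNGAA, which reads alike on both strands) were searched in the 250 bases before each start site. Neither is in the stretch between Psmb9 and Tap1. The ISRE core was found in 14 of the 39 genes (35.9%) against 2.98% of all 32851 promoters, and the GAS core in 10 (25.6%) against 7.02%. A match describes the letters and is not a measured binding site. The genes were listed for their part in the interferon response, so these shares are a description. Upstream stretches are shown for the gene called as higher with FGF2 (SOCS3, chr11:117969502-117969531, minus strand) and for those with the largest differences between replicates (PSMB8, chr17:34198072-34198131, plus strand, and BST2, chr8:71537568-71537627, minus strand). They are also shown for GBP2 (chr3:142620579-142620638, plus strand) and IGTP (chr11:58199491-58199550, plus strand), lower with FGF2 in the paired model only. IFI35, IRF7, IRF9, OASL2, PSMB10, TAPBP, TAP1 and PSMB9, also lower in that model, held neither core in the bases searched, and USP18 had no entry. IRF1, lower in that model too, held a GAS core, and its stretch is not shown. The SOCS3 stretch overlaps the annotated extent of the Socs3 gene itself, whereas those of PSMB8, BST2, GBP2 and IGTP overlap no annotated gene. Capitals mark the cores, which overlap each other in BST2:
SOCS3: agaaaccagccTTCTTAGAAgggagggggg
PSMB8: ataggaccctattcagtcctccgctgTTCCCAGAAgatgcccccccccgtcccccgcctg
BST2: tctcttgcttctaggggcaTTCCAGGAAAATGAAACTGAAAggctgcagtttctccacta
GBP2: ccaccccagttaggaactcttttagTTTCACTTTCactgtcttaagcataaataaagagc
IGTP: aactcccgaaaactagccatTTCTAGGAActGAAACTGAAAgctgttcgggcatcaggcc

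The arrays had a median intensity of 153.4 to 168.1 and 15509 to 16459 detected probes of 45281. All 9 stromal markers listed for PA6 cells (among them COL1A1, VIM and CXCL12) were detected and tested. Of the 13 macrophage and other leukocyte markers on the array, 8 were undetected on every array, PTPRC, ITGAM and CD68 included. CD14 (log2 intensities of 10.60 to 10.97) and LYZ2 were detected on all 6 arrays, CSF1R on 5, AIF1 on 4 and FCER1G on 1. The normalized intensities of all 23 probes of these markers summed to between 4981 and 5423. Deviations from the group mean were shared by arrays of one replicate number (r across genes of 0.602 between -GFs and FGF2, 0.741 between -GFs and BMP4 and 0.579 between FGF2 and BMP4), so the results of the model that includes the replicate number, called paired below, are given wherever they change a call. A gene was called at a log2 fold change beyond 1 with an adjusted p under 0.1.

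In response to FGF2, SOCS3 was up-regulated and TAP1 was down-regulated in PA6 cells, and these were the called genes among the 33 (1 higher against 2.28% of all genes tested, 1 lower against 1.25%). The other 31 genes did not pass at any fold, SOCS3 and TAP1 again being the members counted at an adjusted p under 0.1 whatever the fold (backgrounds of 6.03% higher and 5.78% lower). The median log2 fold change of the 33 genes was -0.32 against -0.02 over all genes tested, with 25 genes below 0 and 8 above. This median rests on single arrays in part. Without FGF2 replicate 1 it was -0.01 with 17 of 34 genes below 0 (-0.08 and 20 with the pairing). Without -GFs replicate 2 it was -0.09 with 23 of 33 genes below 0 (-0.29 and 29 with the pairing). In both replicates 21 genes were lower than in -GFs medium, against 39.4% of all genes, and 4 were higher, against 34.4%.

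With the paired model, 14 of the 33 genes fell in response to FGF2 (42.4%, against 19.6% of all genes tested) and 2 rose (SOCS3 and TRIM25, against 18.1%). The 14 were BST2, GBP2, IFI35, IGTP, IRF1, IRF7, IRF9, OASL2, PSMB8, PSMB9, PSMB10, TAP1, TAPBP and USP18, with log2 fold changes from -1.20 to -0.36. TAP1, PSMB9 and USP18 fell beyond a log2 fold change of 1 (3 genes, against 1.44%). Leaving out 1 array at a time in the paired model left between 7 and 15 genes lower, with 7 (TAP2 now among them) when -GFs replicate 2 was left out, and GBP2, OASL2, PSMB9, SOCS3, TAP1 and USP18 passed in all 6 cases.

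Without the pairing the sizes depended on single arrays. Of these 16 genes, IRF1 and SOCS3 stayed within 1.5 times their value whichever array was left out. Without -GFs replicate 2 the log2 fold change was -0.06 for IRF7, -0.16 for IRF9, -0.16 for PSMB10, -0.16 for IGTP, -0.09 for IFI35 and -0.49 for USP18. Without FGF2 replicate 1 it was -0.39 for GBP2, -0.27 for OASL2 and -0.63 for PSMB9, and without -GFs replicate 1 it was 0.24 for TRIM25.

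Other genes moved with FGF2 as well. The normalized intensities of all 18 probes of the 9 stromal markers summed to between 101448 and 110333 with FGF2 and to between 119161 and 142110 on the other arrays. With the pairing 3 of these markers were lower (19.6% of all genes) and 1 was higher (18.1%). Of the 6 mitosis genes tested, 4 were lower with the pairing (19.6% of all genes), and the 6 had a median log2 fold change of -0.37. Leukocyte markers had a median of -0.01 and none passed. In bulk RNA, fewer cells of a type and less RNA per cell cannot be told apart, and the part of these shifts in the values of the interferon genes was not tested.

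**Figure D1:**
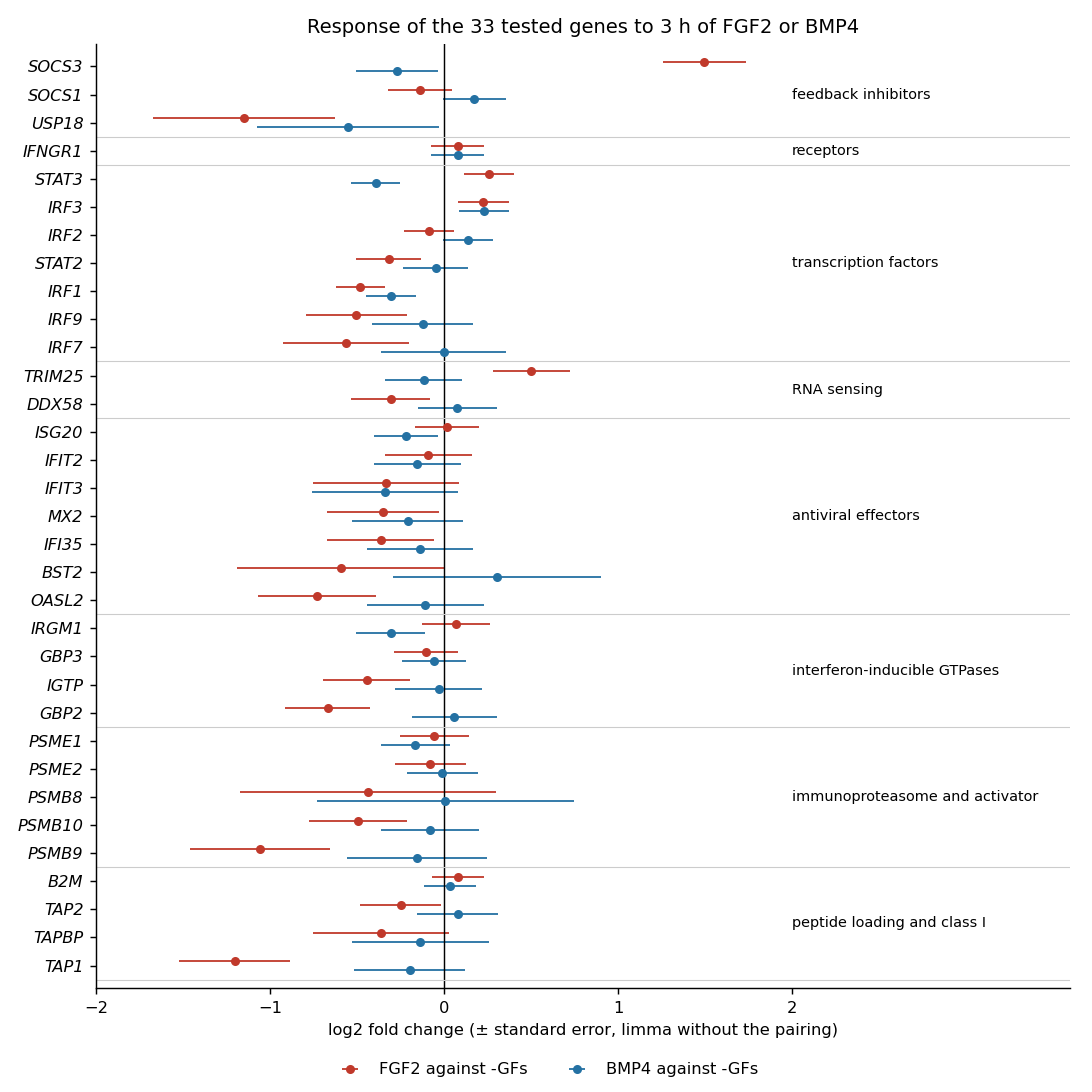
Log2 fold change of the 33 tested genes, grouped by role, after 3 h of FGF2 (red) or BMP4 (blue) against -GFs medium. Points are limma estimates from 2 arrays per group and bars are standard errors without the pairing. With FGF2 the points lie between -1.20 for TAP1 and 1.50 for SOCS3, and with BMP4 between -0.55 for USP18 and 0.30 for BST2.

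Among the inhibitors of the pathway, SOCS3, which binds cytokine receptors and JAK kinases and is induced by STAT3, had log2 intensities of 10.47 and 10.44 in -GFs medium, 11.60 and 12.30 with FGF2, and 10.24 and 10.12 with BMP4 (replicates 1 and 2, here and below). Both FGF2 arrays were above all 4 other arrays. The log2 fold change with FGF2 was 1.50 ± 0.24 (SE), or 2.82-fold, with an adjusted p of 0.0202. Without FGF2 replicate 2 it was 1.14 with an adjusted p of 0.111, which ends the call.

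USP18, a protease that removes ISG15 from proteins and also blocks signalling at the type I receptor, went the other way. Its log2 intensities were 10.41 and 11.73 in -GFs medium, 9.29 and 10.55 with FGF2, and 10.31 and 10.72 with BMP4. Each FGF2 array was below the -GFs array of its own replicate, by 1.12 and 1.18, but the groups overlapped, replicate 2 being higher in each group. The log2 fold change of -1.15 ± 0.52 (SE) had an adjusted p of 0.245, and with the pairing the SE was 0.18 and the adjusted p 0.000128. A second probe of USP18, detected on 1 of 2 FGF2 arrays, gave -0.72. SOCS1, another JAK inhibitor, had log2 intensities of 7.43 and 7.69 in -GFs medium, 7.26 and 7.58 with FGF2, and 7.64 and 7.83 with BMP4. It was near the limit of detection, reached on 1 of 2 -GFs arrays, on no FGF2 array and on both BMP4 arrays, so that no fold is given.

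The largest decrease among the 33 genes was that of TAP1. TAP1, a subunit of the peptide transporter, had log2 intensities of 8.90 and 9.75 in -GFs medium, 7.84 and 8.39 with FGF2, and 8.96 and 9.29 with BMP4. Both FGF2 arrays were below all 4 other arrays. TAP1 fell by 1.20 ± 0.32 (SE) on the log2 scale with FGF2, 2.30-fold, with an adjusted p of 0.0788 (1.01e-05 with the pairing). Without -GFs replicate 2 the unpaired log2 fold change was -0.78, without FGF2 replicate 1 it was -0.93 and without FGF2 replicate 2 it was -1.49, and TAP1 did not pass in these 3 cases (adjusted p of 0.228, 0.339 and 0.215).

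PSMB9, the immunoproteasome subunit that shares the intergenic stretch with TAP1, had log2 intensities of 9.32 and 10.07 in -GFs medium, 8.21 and 9.07 with FGF2, and 9.14 and 9.94 with BMP4. Both FGF2 arrays were again below all 4 other arrays, though by little for replicate 2. Its log2 fold change was -1.06 ± 0.40 (SE), 2.08-fold lower, and passed the test with the pairing (adjusted p = 1.57e-05) but not without it (0.173). The changes were alike in both replicates, -1.11 and -1.01.

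The other immunoproteasome subunits and TAPBP (tapasin), which holds class I molecules at the transporter, had smaller fold changes. PSMB10 had a log2 fold change of -0.50 with FGF2, PSMB8 of -0.44 and TAPBP of -0.36, each passing with the pairing (adjusted p of 0.0143, 0.0260 and 0.0636) and none without it. Their second probes gave -0.38, -0.23 and -0.11, that of TAPBP being higher with FGF2 in replicate 1 and lower in replicate 2. For PSMB8 and TAPBP the difference between replicates was larger than that with FGF2. It enters the unpaired fold change once an array is left out. This fold change turned upward without -GFs replicate 2 (to 0.40 and 0.07), as that of PSMB8 did without FGF2 replicate 1 (0.24). Within replicates 1 and 2 the log2 differences were -0.28 and -0.59 for PSMB8 and -0.22 and -0.50 for TAPBP. TAP2, the partner of TAP1, had a log2 fold change of -0.25, down in replicate 1 (-0.64) and up in replicate 2 (0.14), and did not pass.

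Class I light chain and proteasome activator genes did not pass the test. B2M, the light chain of class I molecules, had log2 intensities of 14.47 and 14.27 in -GFs medium, 14.41 and 14.49 with FGF2, and 14.45 and 14.36 with BMP4. Its groups overlapped, and the log2 fold change with FGF2 was 0.08 ± 0.15 (SE). PSME1 and PSME2, the interferon-inducible proteasome activator, had -0.06 and -0.08. The 6 constitutive proteasome genes tested had a median log2 fold change of 0.18, and PSME3, the nuclear activator, was the gene of these that rose with the pairing (0.64, adjusted p = 0.00380).

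**Figure D2:**
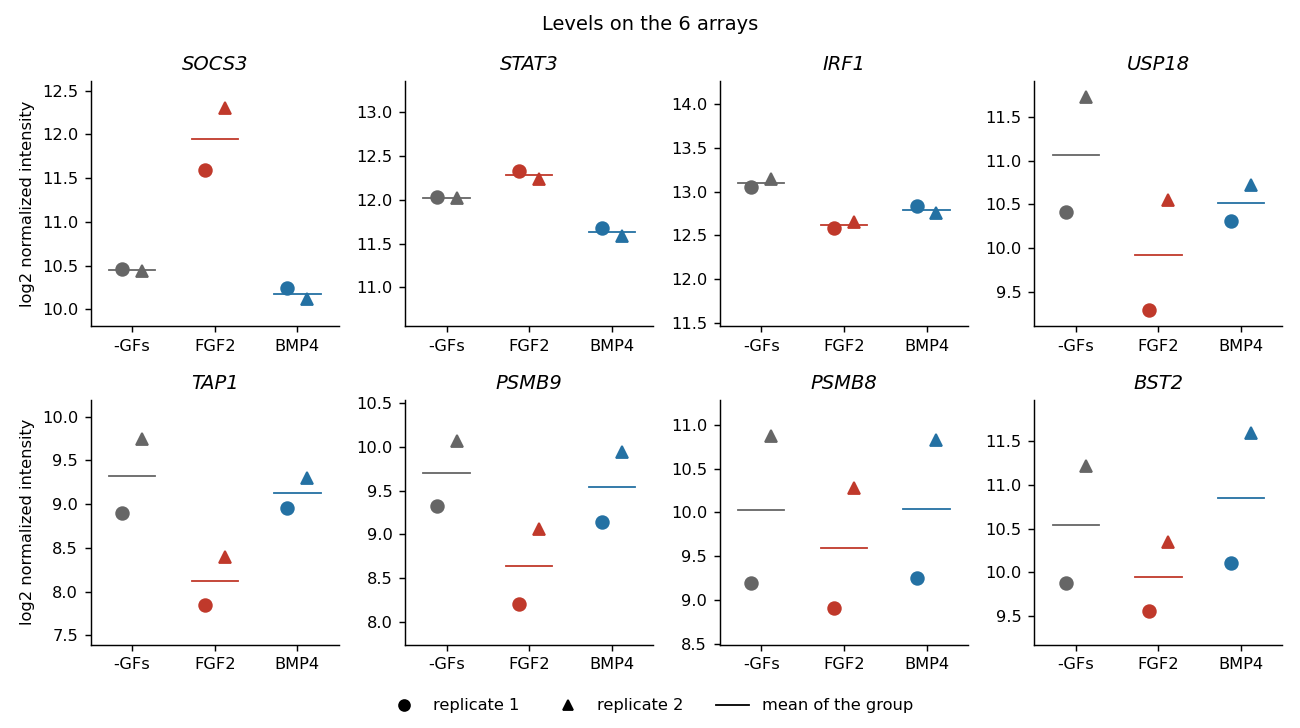
Log2 normalized intensity of 8 genes on each of the 6 arrays, with circles for replicate 1, triangles for replicate 2 and a line at the mean of each group. Every panel spans the same log2 range. SOCS3 reaches 11.60 and 12.30 with FGF2, TAP1 drops to 7.84 and 8.39, and replicate 2 lies above replicate 1 in every group for USP18, TAP1, PSMB9, PSMB8 and BST2.

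Of the transcription factors, IRF1, an interferon-induced activator of class I and immunoproteasome genes, had log2 intensities of 13.05 and 13.15 in -GFs medium, 12.58 and 12.66 with FGF2, and 12.83 and 12.76 with BMP4. The FGF2 arrays were the lowest of all, with little spread between replicates. Its log2 fold change of -0.48 ± 0.14 (SE) had an adjusted p of 0.102, or 0.0135 with the pairing, and 3 further retained probes gave -0.35 to -0.46. IRF7, which drives type I interferon production, and IRF9, which joins STAT proteins in binding DNA, fell by 0.56 and 0.50 on the log2 scale with the pairing (adjusted p of 0.0122 and 0.0107). IRF7 was detected on 1 of 2 FGF2 arrays.

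STAT2 had log2 intensities of 8.65 and 8.89 in -GFs medium, 8.57 and 8.34 with FGF2, and 8.89 and 8.56 with BMP4. It did not pass in any comparison, with a log2 fold change of -0.32 with FGF2. STAT3, which transmits the signals of the interleukin 6 family, had 12.04 and 12.02 in -GFs medium, 12.33 and 12.24 with FGF2, and 11.68 and 11.59 with BMP4. The groups did not overlap, with FGF2 on top and BMP4 at the bottom. Against -GFs medium STAT3 passed neither with FGF2 (0.26 ± 0.14, SE) nor with BMP4 (-0.39 ± 0.14, SE), and its 2 other probes gave 0.67 and 0.45 with FGF2 and 0.04 and -0.35 with BMP4. IRF2 and IRF3 had log2 fold changes of -0.09 and 0.23 with FGF2 and did not pass, and the probes of IRF3 did not move the same way.

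Among the effectors, OASL2, of the oligoadenylate synthetase family, fell with the pairing by 0.73 on the log2 scale in response to FGF2 (adjusted p = 0.00177), and its second probe gave -0.59. BST2 (tetherin), which retains budding virus at the cell surface, had -0.59 (adjusted p with the pairing 0.00990, and an unpaired value of 0.07 without -GFs replicate 2), and IFI35 had -0.36 (0.0813). IFIT3 had -0.33, MX2 -0.35, IFIT2 -0.09 and ISG20 0.02, and none of these passed. Second probes gave -0.10 for IFIT3 and 0.25 for IFIT2, so that no direction can be given for IFIT2. MX2 and the first probe of IFIT2 were detected on 1 of 2 FGF2 arrays.

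Interferon-inducible GTPases restrict intracellular pathogens. GBP2 had log2 intensities of 11.19 and 11.63 in -GFs medium, 10.46 and 11.03 with FGF2, and 11.36 and 11.57 with BMP4. Both FGF2 arrays were below the others, and the log2 fold change of -0.67 ± 0.24 (SE) passed with the pairing (adjusted p of 0.00180, against 0.162 without). IGTP fell by 0.45 on the log2 scale with the pairing (0.0239), whereas GBP3 had -0.10. For IRGM1 the brighter probe gave 0.07 and the other -0.46, so that no direction can be given.

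TRIM25, the ubiquitin ligase that activates the RNA sensor DDX58 (RIG-I), rose in the paired model by 0.50 on the log2 scale with FGF2 (adjusted p = 0.0171, 0.233 without the pairing). Its other probe was undetected on both -GFs arrays. DDX58 itself had -0.31 and did not pass. The interferon γ receptor chain IFNGR1 had 0.08. Of the receptor chains outside the list, IFNGR2 rose with the pairing (0.63, adjusted p = 0.00371, 0.136 without) and IFNAR2 had 0.16.

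**Figure D3:**
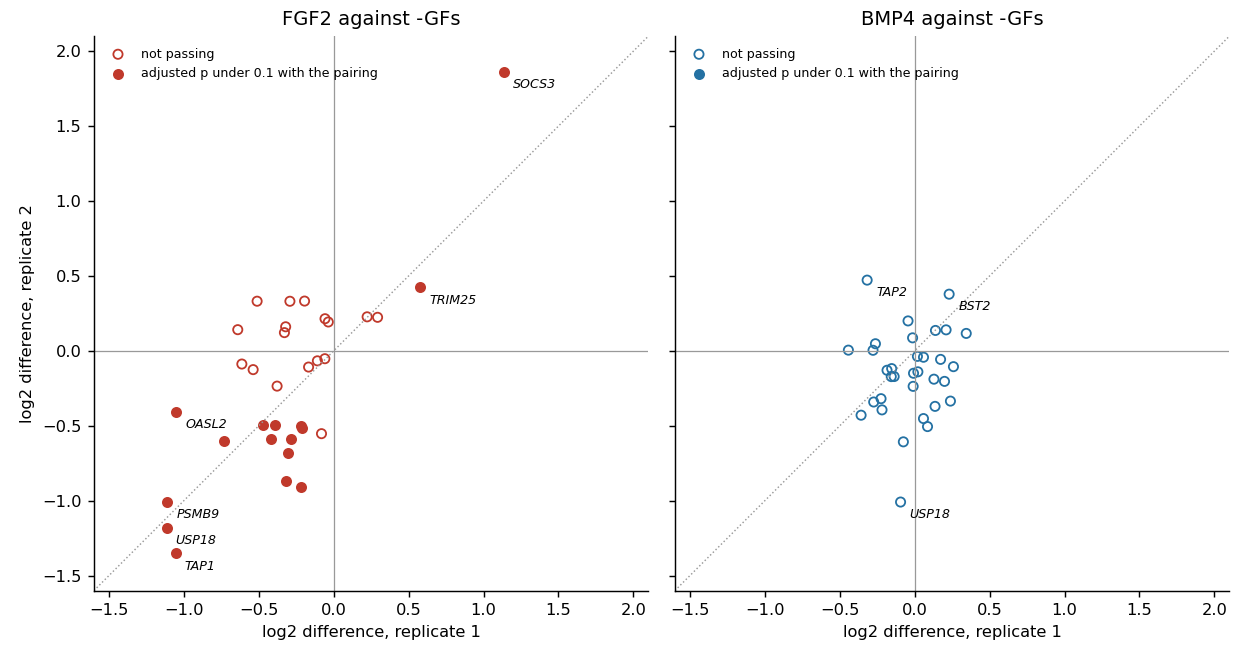
Log2 difference from -GFs medium in replicate 1 (horizontal axis) and in replicate 2 (vertical axis) for the 33 genes, with FGF2 on the left and BMP4 on the right. Filled points passed an adjusted p under 0.1 in the paired model and the dotted line marks equal differences. With FGF2, 16 genes are filled, 14 of them in the lower left quadrant, and with BMP4 none is.

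None of the 33 genes was called in response to BMP4. In limma, no gene of the list passed at any fold with or without the pairing (backgrounds of 0.00842% higher without it, and of 0.168% higher and 0.0505% lower with it), 1 (STAT3) had an unadjusted p under 0.05 (1.81% of all genes), or 3 with the pairing (7.02% of all genes), and none passed in the t-test of the methods. That unpaired t-test is named in the general statistics section of the methods, whereas the arrays there were analysed with limma. It passed 1 of all 11872 genes with BMP4. The smallest paired adjusted p was 0.420, that of USP18. USP18 had a log2 fold change of -0.55 with BMP4, -0.09 in replicate 1 and -1.01 in replicate 2, and passed in the paired model when BMP4 replicate 1 or either FGF2 array was left out. The median over the 33 genes was -0.11, against 0.00 over all genes tested. Its sign turned without -GFs replicate 2 (0.11, or -0.07 with the pairing) and without BMP4 replicate 1 (0.05, or -0.15 with the pairing). In the paired model it turned without BMP4 replicate 2 (0.01). In both replicates 12 genes were lower with BMP4 (27.5% of all genes) and 4 were higher (28% of all genes). With BMP4, TAP1 had a log2 fold change of -0.20 and PSMB9 of -0.16, beside -1.20 and -1.06 with FGF2, comparisons that share the -GFs arrays.

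FGF2 and BMP4 were compared directly. SOCS3 was higher with FGF2 by 1.77 ± 0.24 (SE) on the log2 scale (adjusted p = 0.0137) and was called (1 gene, against 2.03%). STAT3 was higher with FGF2 by 0.65 ± 0.14 (adjusted p = 0.0522), and its 2 other probes gave 0.63 and 0.81, so that 2 of the 33 genes passed at any fold (4.84% of all genes). No gene of the list passed as lower with FGF2 than with BMP4 in limma (4.22% of all genes), and 2 (TAP1 and GBP2) had an unadjusted p under 0.05 (10.9% of all genes). None passed in the t-test of the methods, which passed none of all 11872 genes in this comparison. STAT3 did not pass with neqc or when any FGF2 or BMP4 array was left out.

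With the pairing, 12 genes were lower with FGF2 than with BMP4 (17.8% of all genes) and 4 were higher (16.3%). TAP1 was lower by a log2 difference of -1.01 (adjusted p = 7.75e-05), PSMB9 of -0.90, BST2 of -0.90, GBP2 of -0.73 and OASL2 of -0.62. These 5 were among the 12 together with DDX58, IGTP, IRF7, IRF9, PSMB8, PSMB10 and USP18. The unpaired difference turned upward for USP18 without FGF2 replicate 1 (0.03) and for PSMB8 without FGF2 replicate 1 (0.23) or BMP4 replicate 2 (0.34). The 4 higher genes were IRGM1, whose other probe went the opposite way (-0.31), SOCS3, STAT3 and TRIM25. BST2, GBP2, PSMB9, SOCS3, STAT3 and TAP1 passed whichever array was left out of the paired model. Without the pairing, SOCS3, STAT3, TAP1 and TRIM25 were the 4 of these 16 genes that stayed within 1.5 times their value. Without FGF2 replicate 1 the unpaired median of the list was 0.04 in place of -0.23. With the pairing it was -0.17 in that case, with 19 of 34 genes below 0.

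The genes also separated the replicates. The contrast of replicate 2 with replicate 1 compares 2 cultures over 3 wells each, and the list was written after differences between replicates had been seen in these arrays, so that its counts are a description. In this contrast 18 of the 33 genes were higher in replicate 2 (54.5%, against 12.8% of all genes) and none was lower in limma (16% of all genes; none at an unadjusted p under 0.05 either, against 18.2%). Without the FGF2 arrays 17 passed, IFIT2 and IRGM1 then being lower in replicate 2. The median difference was 0.31 on the log2 scale, against 0.02 over all genes tested. In all 3 conditions 20 genes were higher in replicate 2 (28.2% of all genes) and STAT3 was lower (25.1%), though its 2 other probes had mean differences of 0.21 and 0.32.

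PSMB8 and BST2 were called (2 genes, against 0.329%). PSMB8 had log2 intensities of 9.19 and 10.87 in -GFs medium, 8.91 and 10.28 with FGF2, and 9.25 and 10.83 with BMP4. The 3 arrays of replicate 2 were all above the 3 of replicate 1, with a mean difference of 1.54 ± 0.12 (SE), 2.90-fold. A second, dimmer probe gave 0.48 in the same direction.

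BST2 had log2 intensities of 9.88 and 11.21 in -GFs medium, 9.56 and 10.34 with FGF2, and 10.11 and 11.59 with BMP4. All replicate 2 arrays were again above all those of replicate 1, by 1.20 ± 0.13 (SE) on average. USP18 (0.99), PSMB9 (0.81), TAPBP (0.77) and IFIT3 (0.75) followed.

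TAPBP had log2 intensities of 8.68 and 9.53 in -GFs medium, 8.46 and 9.03 with FGF2, and 8.52 and 9.41 with BMP4, and replicate 2 exceeded replicate 1 on all arrays. A second probe of TAPBP had a mean difference of 0.24, but with FGF2 it was lower in replicate 2 (8.13) than in replicate 1 (8.53). IFIT3, whose product binds viral RNA in complex with IFIT1, had 10.68 and 11.47, 10.14 and 11.35, and 10.61 and 10.87 in the same order. The other genes that passed were IRF7, OASL2, TAP1, IRF9, IFI35, PSMB10, IGTP, MX2, GBP2, DDX58, PSME1 and TRIM25, with differences of 0.30 to 0.65. Of these, MX2 had 0.14 without FGF2 replicate 2, DDX58 0.21 without FGF2 replicate 1 and TRIM25 0.19 without -GFs replicate 2. Among those that did not pass were IRF1 (0.03), STAT2 (-0.11), B2M (-0.07) and IFNGR1 (0.10).

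**Figure D4:**
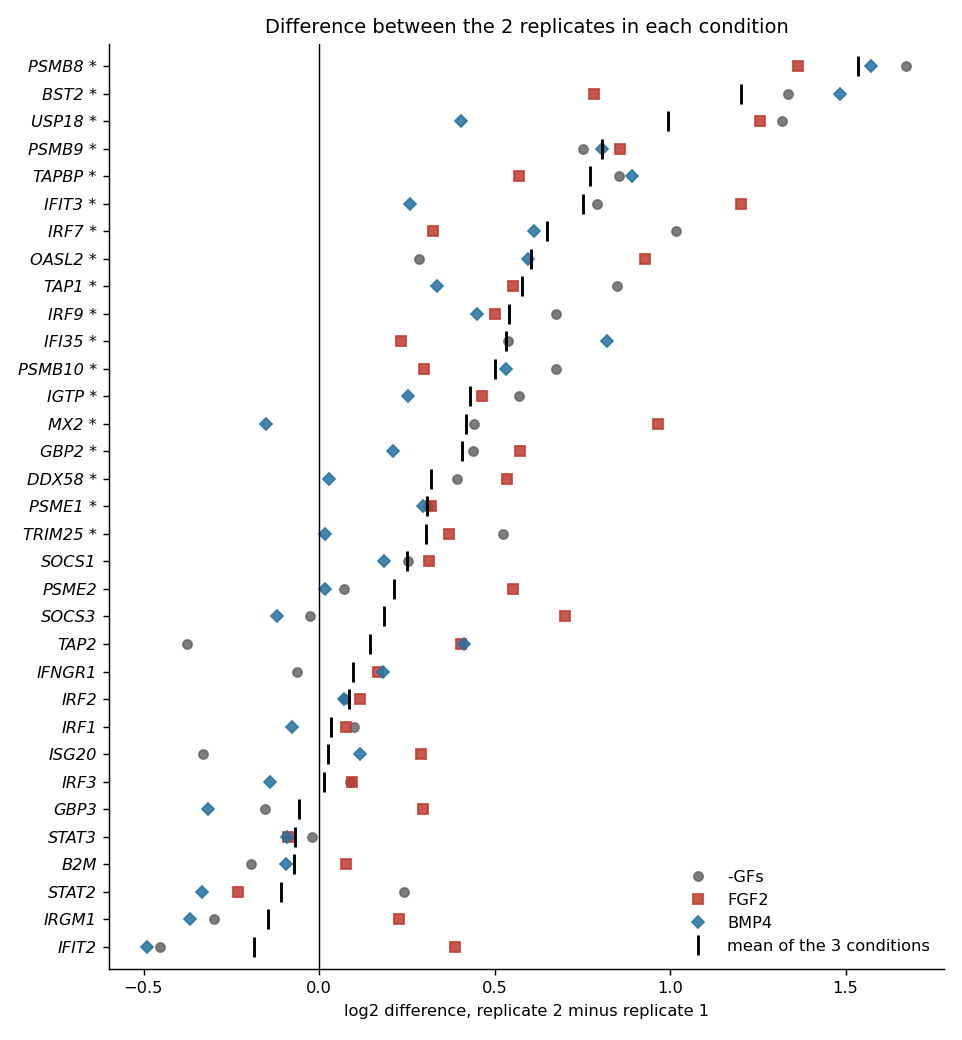
Log2 difference of replicate 2 minus replicate 1 for the 33 genes in -GFs medium (circles), with FGF2 (squares) and with BMP4 (diamonds), sorted by the mean of the 3 conditions (bars). Asterisks mark the 18 genes with an adjusted p under 0.1. PSMB8 lies between 1.36 and 1.67 in every condition, whereas MX2 is below 0 with BMP4.

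Other markers moved with the replicate number too, in a contrast where 12.8% of all genes were higher in replicate 2 and 16% were lower. Of the 9 stromal markers, COL3A1 (0.87) and COL1A2 (0.46) were higher in replicate 2, and S100A4 (-0.76), THY1 (-0.51) and CXCL12 (-0.47) were lower. Of the 2 endothelial markers tested, KDR was higher (0.48, adjusted p = 0.0132). Adipocyte markers were higher in replicate 2, with a median difference of 1.01 over the 4 tested (LPL 1.82 and CFD 1.74), and all 11 probes of the 8 on the array summed to between 3763 and 4137 in replicate 1 and to between 7267 and 8559 in replicate 2. CEBPA and PPARG did not pass. The 4 leukocyte markers tested had a median difference of -0.0017, none passing, and mitosis genes had -0.25, with CDC20 and TOP2A lower. Whether adipocyte content or any of these shifts has a part in the difference of the interferon genes was not tested.

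Of the 7 genes with a probe that did not pass the filter, IFIT1, IRF8, MX1, OAS1A, IFIH1 and IFNAR1 were undetected on all 6 arrays. RSAD2 (viperin), an antiviral enzyme, was detected on the 3 arrays of replicate 2 and on none of replicate 1, with intensities of 276.0, 317.1 and 211.3 against 175.7, 141.7 and 142.6 in the order -GFs, FGF2 and BMP4.

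The remaining pathway was examined through 100 other genes, of which 89 were on the array and 56 were tested. Without the pairing 3 rose with FGF2 and 4 fell, near the shares over all genes tested (6.03% and 5.78%). With the pairing 6 rose and 18 fell (18.1% and 19.6% of all genes). CISH, a SOCS family inhibitor, had log2 intensities of 9.54 and 9.63 in -GFs medium, 10.84 and 11.33 with FGF2, and 8.76 and 8.93 with BMP4. JAK2, the kinase that SOCS proteins restrain, had 9.14 and 8.69, 10.45 and 10.48, and 9.39 and 8.87 in the same order. For both genes the FGF2 arrays were above all others.

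CISH rose by 1.50 ± 0.20 (SE) on the log2 scale (adjusted p = 0.0121), JAK2 by 1.55 ± 0.23 (0.0172) and IFI205, a nuclear protein of the interferon-inducible p200 family, by 1.51 ± 0.33 (0.0476). Among those that fell were DTX3L (-0.81), UBA7 (-0.83, UBE1L on the array), which activates ISG15, and PML (-0.56). With BMP4 no gene passed without the pairing, and with it IRF5 rose (1.11, adjusted p = 0.000429) and CISH fell by 0.74 (0.0537). Of all genes, 0.168% rose and 0.0505% fell with BMP4 in the paired model. Between replicates OAS1G was called, higher by 1.05 ± 0.13 (SE) in replicate 2, among 15 higher and 11 lower genes (12.8% and 16% of all genes). Of the 6 interferon ligand genes, 5 were undetected on every array, and IFNA1 did not pass (0.05 with FGF2, -0.01 with BMP4).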

How the data were processed

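RNA of PA6 cells was measured by the authors on Illumina MouseWG-6 v2.0 BeadChips, with BeadStudio and GenomeStudio 2011.01 (submitters' processing notes). The authors deposited each probe's mean bead intensity before normalization (linear scale) and its detection p-value. Left out were 9 columns of values without a heading and 6 leftover lines. Samples were grouped by the labels.

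Intensities were normalized by cubic spline (452 quantiles per array), re-implemented in R 4.3.3 after the methods, and converted to log2. The detection filter asked for p under 0.05 in both replicates of 1 group or more and kept 16111 probes, of which the one with the largest mean stood for its gene. The model of limma 3.58.1 (lmFit, eBayes) took all 6 arrays, without a block (3 residual degrees of freedom) or, for the paired values and the replicate contrast, blocked by replicate number (2 residual degrees of freedom). The labels state that each replicate comprised 1 well per condition, which is where the pairing comes from. Every adjusted p is limma's after Benjamini-Hochberg adjustment over 11872 genes. Where an array was left out or the detection filter was changed, the adjustment was over the genes that passed the filter in that run. Since only 2 cultures were used, p-values measure the spread between these arrays, and the number of arrays limits the precision. Levels were not compared between probes. The procedure was tested on simulated data with changes larger than most of those given here. Recovery of smaller changes was not tested.

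Members and lists were chosen with earlier results of these data known. All members are accounted for. Values on all 6 arrays are given for members at an adjusted p under 0.1 in a treatment comparison, for the 6 with the largest replicate difference, and for IRF1, SOCS1, SOCS3, STAT2, STAT3, B2M, TAP1 and PSMB8. GBP2, RSAD2, JAK2 and CISH were added after their values were seen. Promoters are from RefSeq, without the bases after the start site. Alternatives were quantile normalization, neqc (offset 16), median scaling, other detection filters, averaging a gene's probes, trend and robust options, the methods' t-test and leaving out each array. The values of 1 pathway gene are not reported here.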

Additional observations from a re-analysis of the deposited data

How the results depend on the processing

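The counts below are of the 33 genes of the list. SOCS3 and TAP1 stayed called with FGF2 under each normalization, detection filter and probe choice tried without the pairing, and with the trend and robust options. With the methods' t-test and Benjamini-Hochberg adjustment no gene passed with FGF2 or against BMP4 (0 called, 0 at any fold). None of all 11872 genes passed in these comparisons either, so that this test says nothing about the list. The paired analysis with the replicate block called 4 genes with FGF2 and passed 16 at any fold. Together with the block, quantile normalization gave 4 and 16, neqc 5 and 16, and median scaling 4 and 20 (combinations chosen after seeing the data). For FGF2 against BMP4 the replicate block called 2 and passed 16, quantile normalization with it 2 and 16, neqc with it 4 and 12, and median scaling with it 2 and 15, whereas without the block median scaling called 2 and neqc passed 1. No gene passed with BMP4 under any of these settings. Between replicates neqc called 6 genes and passed 14. With 1 array left out and no block, 0 to 2 genes were called and passed with FGF2, none with BMP4, 1 to 2 were called and 1 to 3 passed for FGF2 against BMP4, and between replicates 2 to 5 were called and 14 to 18 passed, the 5 being without BMP4 replicate 1. With 1 array left out and the replicate block, 3 to 4 were called and 9 to 17 passed with FGF2, 0 to 1 were called and 0 to 1 passed with BMP4 (USP18), and 1 to 3 were called and 12 to 16 passed for FGF2 against BMP4 (13 without FGF2 replicate 2). Median scaling moved the median of all genes with FGF2 to -0.10 and the split of genes passing from 716 higher and 686 lower to 502 and 910, with 29 members below 0 in place of 25. Among single genes, the unpaired difference over the arrays left out ran for FGF2 against -GFs from -1.28 to 0.40 for PSMB8, from -0.79 to 0.067 for TAPBP and from -1.26 to 0.071 for BST2 (above 0 without -GFs replicate 2, and for PSMB8 also 0.24 without FGF2 replicate 1), and for FGF2 against BMP4 from -1.24 to 0.34 for PSMB8 (above 0 without BMP4 replicate 2 and, at 0.23, without FGF2 replicate 1) and from -1.22 to 0.031 for USP18 (above 0 without FGF2 replicate 1). Without the block, leaving out 1 array of a compared group leaves it with 1 replicate, so the difference between replicates enters these values. Within replicates 1 and 2, PSMB8 changed by -0.28 and -0.59 with FGF2 against -GFs medium. TAPBP changed by -0.22 and -0.50, and BST2 by -0.32 and -0.87. No further cause was tested. Genes near the detection limit (SOCS1, IFIT2, IRF7, ISG20 and MX2) have the least certain values.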
